A study of Capsicum annuum and Solanum lycopersicum with 125 samples.

Results

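The stock of a self-grafted tomato, the rooted lower stem on which a scion of the same variety was set, was compared with ungrafted tomato stem of the same age at 14 days after grafting (DAG). The members are the 5 self-grafted stock libraries and the 5 ungrafted stem libraries of that day, 10 of the 61 tomato libraries and of the 125 libraries of the whole series, and their labels put them in these groups. The series measured gene expression by 3' sequencing in ungrafted stems, scions and stocks of tomato and pepper grafted to themselves or to each other, at 7, 14 and 21 DAG. All plants used here were Solanum lycopersicum var. M82 seedlings, and the ungrafted plants went through the same humid recovery as the grafts. From the grafts a short piece of stem next to the cut was taken, so each stock library mixes cut tissue, callus and older stem. The ungrafted stems had no graft cut, so the mix of tissues can differ between stock and stem libraries. What such a difference adds to the comparison was not tested. In these libraries, fewer cells of a type cannot be told apart from less RNA per cell. The tomato stocks that carried pepper scions were kept out of the scaling and the estimate of spread.

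Grafting begins with a wound on both sides of the cut. Cells near the cut divide into callus, the faces adhere, and phloem and then xylem are rebuilt across the junction, the stock supplying roots and the scion the shoot. Wounding is known to switch on ethylene response factors, jasmonate signalling and defence genes, and vascular repair draws on the cambium. The count table gives tomato genes by identifier without names, and no tomato annotation was used here, so gene functions are given only for the 6 identifiers that the study's text names, and tissue markers could not be looked up. No tomato sequence was used here.

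Total counts ran from 1389700 to 2506444 in the stems (median 2060822, n = 5) and from 1590724 to 2697656 in the stocks (median 2066670, n = 5). A library detected a median of 15504 genes in the stems and 16094 in the stocks. Stems 4 and 5 stood apart: they detected 13064 and 12488 genes. Of the 10906 tested genes with at least 10 counts in each of stems 1 to 3, stem 4 listed 9.48% at 0 and stem 5 listed 11.4%. Stems 1, 2 and 3 listed 0.798%, 1.83% and 1.65% at 0 when each was set against the others of these 3. A stock set against the other 4 stocks listed 0.414% to 3.01%, the highest in stock 5. The plot of genes listed at 0 shows these shares for each library.

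**Figure D1:**
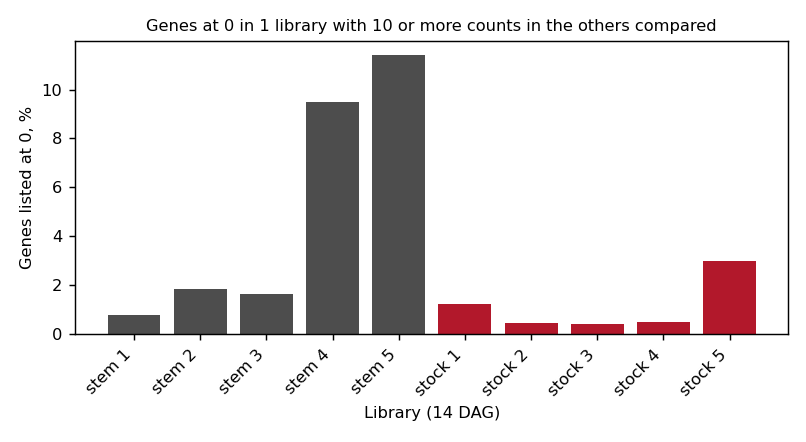
Percent of tested genes listed at 0 in each 14 DAG library although they had 10 or more counts in every other library it was compared with (for stems, the others of stems 1 to 3, and for stocks, the other 4 stocks); grey bars are stems and red bars stocks. Stems 4 and 5 reach 9.48% and 11.4%, against at most 3.01% in the other libraries.

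At 14 DAG the stock differed from the stem mostly by genes that were higher in the stock. Of 34688 genes in the table, 12152 had enough counts to be tested, and 103 were called (0.848% of those tested), 76 higher in the stock (0.625%) and 27 lower (0.222%). To be called, a gene needed an adjusted p (Benjamini-Hochberg) below 0.05 in edgeR's quasi-likelihood test together with a log2 fold change beyond 1.5 up or down. Over all genes tested, the log2 fold change had a median of 0.06. Without the fold change threshold the directions were closer in number, with 228 genes higher and 207 lower. The counts depended on single libraries. They were 34 higher and 9 lower without stock 2, 40 and 10 without stock 4, and 33 and 11 without stock 5. The lower calls numbered 17 without stem 1, 12 without stem 3 and 16 without stem 4, with at least 63 higher calls in each of these fits. Without stems 4 and 5 together, 75 genes were called higher and 16 lower, and these held 50 of the 76 higher and 11 of the 27 lower genes.

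The genes called higher were weakly expressed in the stem. Their median level was 4.17 CPM (counts scaled to the library total) in the stems and 26.1 CPM in the stocks, whereas the genes called lower went from a median of 69.4 CPM to 16.6 CPM. Of the 76 higher genes, 28 had a fitted log2 fold change above 4, 25 lay between 2 and 4, and 23 between 1.5 and 2, with a median of 3.23. A group of 12 of the 76 was listed at 0 in all 5 stems, so their fold changes have no upper limit. Each of these was then set against a floor of 3 counts per stem library. On that floor, 18 genes lay above 4, 35 between 2 and 4 and 23 between 1.5 and 2, and the median was 2.84. The floor gives a lower bound only where a listed 0 stands for under 3 counts. Stems 4 and 5 listed at 0 some genes with at least 10 counts in each of stems 1 to 3, so this may not hold there. Over the 5 stems together, 22 of the 76 higher genes held under 10 counts. These passed the count filter mainly through the stocks. Of the 27 lower genes, 17 lay between 1.5 and 2, 9 between 2 and 4 and 1 beyond 4. Their median was -1.75, and none was at 0 in every stock.

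**Figure D2:**
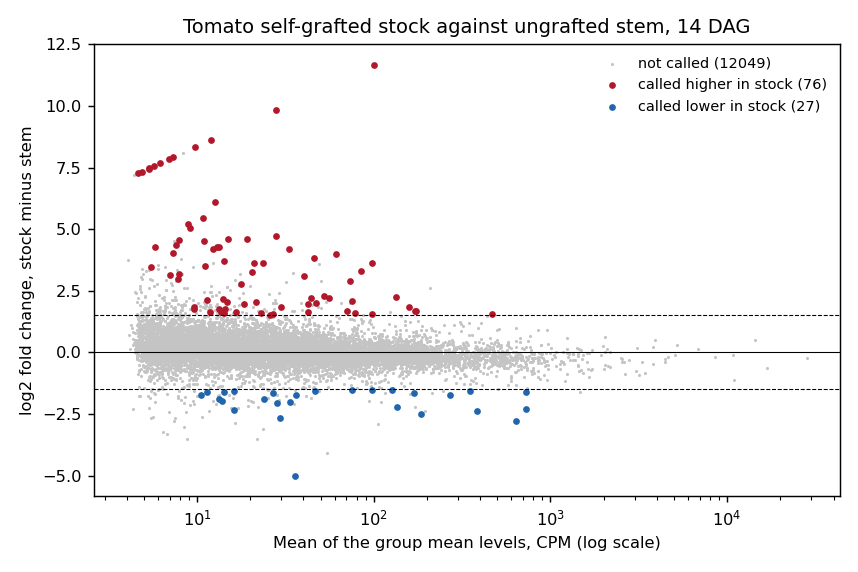
Log2 fold change of stock minus stem at 14 DAG (vertical axis) against the mean of both group means in CPM (horizontal log axis) for the 12152 genes tested, with the 76 genes called higher in red and the 27 called lower in blue. The dashed lines mark 1.5 and -1.5, and the largest fitted changes are of weakly expressed genes that were higher in the stock.

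The stock and stem libraries did not overlap for 74 of the 76 higher genes and 22 of the 27 lower genes, against 8.76% of all genes tested. In single libraries, the stems held counts on 56, 55, 49, 40 and 40 of the 76 higher genes, and the stocks on 76, 76, 76, 76 and 75. The fewest were in stems 4 and 5. The median level over the 76 genes was 5.17, 3.94, 3.06, 1.70 and 2.27 CPM in stems 1 to 5 and 23.6, 29.7, 17.0, 31.5 and 35.3 CPM in stocks 1 to 5. Stock 3 was the lowest stock and still lay above every stem. For the 27 lower genes the median level was 71.6, 81.8, 79.5, 65.9 and 63.5 CPM in the stems and 13.4, 15.7, 19.5, 21.7 and 16.6 CPM in the stocks. These overlaps and levels describe genes that were chosen by this comparison and carry no test. That few of the called genes overlapped follows largely from that choice.

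Of the 5 tested genes with a name, ERF114 (Solyc03g118190) was called, and it was higher in the stock. ERF114 is an ethylene response factor, a transcription factor whose relative in Arabidopsis, RAP2.6L, responds to wounding. Its level was 0, 0.875, 1.53, 0 and 0 CPM in stems 1 to 5 and 16.1, 8.29, 7.81, 10.2 and 12.9 CPM in stocks 1 to 5. All 5 stocks lay above all 5 stems. The log2 fold change was 4.27 ± 0.79 (SE, n = 5 and 5) with an adjusted p of 0.022 in edgeR's quasi-likelihood test. The stems held 5 counts in all and the stocks 117, so ERF114 passed the count filter mainly through the stocks. The pooled ratio was 20.3, with a 95% exact binomial interval of 8.46 to 63.8 that covers counting error only. Without stock 2, stock 4 or stock 5 the adjusted p of ERF114 in that test was 0.056, 0.055 and 0.056, above the threshold. Without stems 4 and 5 it was 0.043, with a log2 fold change of 3.75.

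ERF114 was also high in the stocks of the other days, in separate plants with their own stems. On counts scaled over all 3 days, the stocks of 7 DAG had 8.78, 7.68 and 24.5 CPM and the stems 3.43, 0, 0 and 0 CPM. The change at 7 DAG was 3.70 ± 1.01 on the log2 scale, with an adjusted p of 0.045 by edgeR. At 21 DAG the stocks had 22.2, 16.6, 6.62, 7.95 and 10.6 CPM and the stems 1.51, 3.43, 1.81 and 0 CPM. The change at 21 DAG was 2.83 ± 0.89, with an adjusted p of 0.058 by edgeR. The stocks lay above the stems on both days. The change at 14 DAG of ERF114 minus that at 7 DAG was 0.55 ± 1.24 (adjusted p = 0.98), and minus that at 21 DAG 1.42 ± 1.19 (adjusted p = 0.80), both by edgeR's quasi-likelihood test over the 3 days. The self-grafted scions of 14 DAG had 6.72, 15.3, 17.9 and 10.1 CPM of ERF114. Stock minus scion was -0.21 ± 0.33 (adjusted p = 0.97 by edgeR), and these groups overlapped.

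Neither tested gene of the BRCA1 and BARD1 pair passed the test. In mammals their products act together in DNA repair by homologous recombination, and the plant homologs respond to DNA damage. BARD1 (Solyc05g016230) had 11.1, 11.8, 8.16, 0 and 0 CPM in stems 1 to 5 and 11.8, 16.6, 10.3, 13.4 and 20.3 CPM in stocks 1 to 5. The stems at 0 were stems 4 and 5. The log2 fold change of BARD1 was 1.15 ± 0.80 (adjusted p = 0.50 by edgeR) with these libraries and 0.46 ± 0.28 (adjusted p = 0.45) without them. BRCA1 (Solyc12g041980) showed the same stems at 0. Its levels were 10.7, 7.44, 5.61, 0 and 0 CPM in the stems and 11.3, 13.4, 7.10, 6.69 and 11.0 CPM in the stocks. Its log2 fold change was 0.99 ± 0.84 (adjusted p = 0.60 by edgeR), and 0.30 ± 0.35 (adjusted p = 0.73) without stems 4 and 5. With 1 library left out it ran from 0.68 to 1.505, the lowest without stem 4 and the highest without stem 1. The other BRCA1 homolog (Solyc09g066080) held 46 counts over the 10 libraries, too few to be tested.

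WRKY70 and HSR4, both linked to defence, were not called. WRKY70 (Solyc03g095770) is named for its likely counterpart in Arabidopsis, a transcription factor of the defence hormones salicylic acid and jasmonate. It had 5.97, 5.25, 14.3, 16.3 and 4.54 CPM in the stems and 16.1, 9.67, 0, 3.15 and 4.30 CPM in the stocks. The groups overlapped, and the log2 fold change of WRKY70 was -0.49 ± 0.85 (adjusted p = 0.82 by edgeR). It ran from -1.10 without stock 1 to -0.16 without stock 3 when 1 library was left out. HSR4 (Solyc02g062550), a gene tied to cell death, had 29.1, 8.75, 57.6, 10.9 and 17.4 CPM in the stems and 71.3, 14.3, 7.45, 9.45 and 6.75 CPM in the stocks. Stock 1 held the highest value of HSR4 in either group, and the other 4 stocks lay within or below the range of the stems. Its log2 fold change was -0.20 ± 0.75 (adjusted p = 0.92 by edgeR). With standard errors of 0.75 to 0.85, changes of the size of the call threshold in these genes could have been missed.

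**Figure D3:**
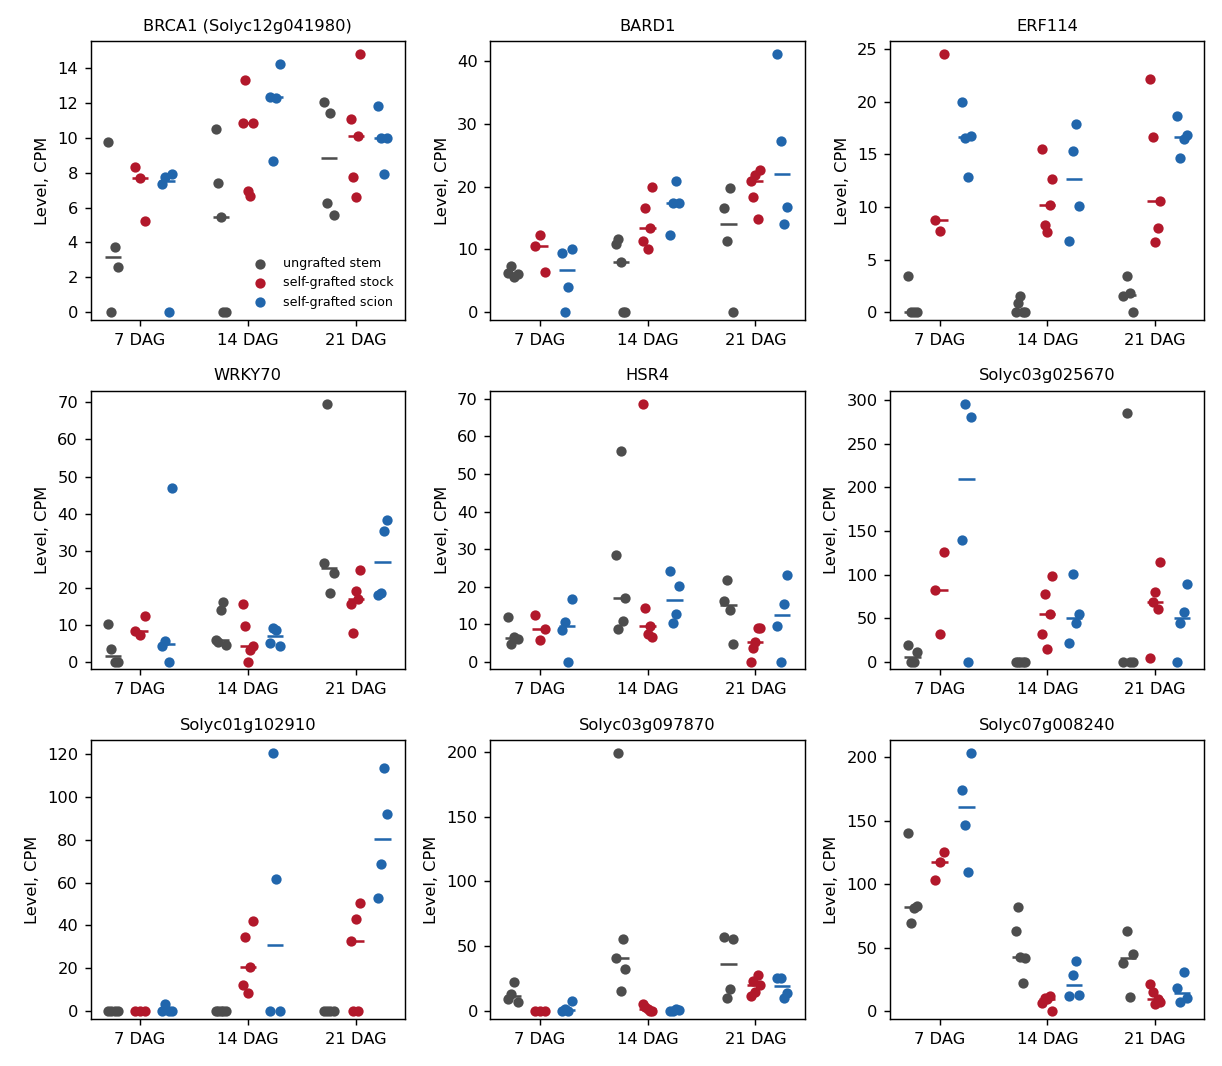
Level in CPM (linear axes) of 9 genes in each library of ungrafted stem (grey), self-grafted stock (red) and self-grafted scion (blue) at 7, 14 and 21 DAG, scaled over all of these libraries, with a bar at the median of each group. ERF114 is near 0 in the stems and between 6.62 and 24.5 CPM in the stocks, and BRCA1 and BARD1 are at 0 in the same stems of 14 DAG.

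Among genes without a name, the 2 largest rises and the 2 largest falls with groups that did not overlap and a mean of at least 5 CPM in the higher group are given by identifier. Solyc03g025670 was at 0 in all 5 stems and at 32.7, 77.8, 14.9, 55.1 and 101 CPM in stocks 1 to 5. Its mean in the stocks was 56.3 ± 34.3 CPM (SD, n = 5). That mean was 33.7-fold the floor of 3 counts per stem library (adjusted p = 0.012 by edgeR). Solyc01g102910 was also at 0 in every stem, with 12.9, 34.5, 8.52, 20.5 and 43.0 CPM in the stocks. The stock mean of Solyc01g102910 was 14.3-fold the same floor (adjusted p = 0.012 by edgeR). These folds are lower bounds only where a 0 in a stem stands for under 3 counts. With no counts in any stem, both genes passed the count filter through the stocks alone. They were picked for their fold change in these same libraries, so the adjusted p gives no separate support. Both genes were lowest in stock 3 and highest in stock 5.

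On the other days these genes gave mixed results. At 7 DAG, Solyc03g025670 had 81.8, 31.5 and 126 CPM in the stocks and 18.9, 0, 0 and 11.2 CPM in the stems, groups that did not overlap, and its change was 3.32 ± 1.59 on the log2 scale (adjusted p = 0.28 by edgeR). At 21 DAG, Solyc03g025670 reached 285 CPM in stem 2 and was at 0 in the other 3 stems, and its change was -0.13 ± 1.24 on the log2 scale (adjusted p = 0.98 by edgeR). Solyc01g102910 was at 0 in all stocks and stems of 7 DAG. At 21 DAG its stocks held 32.6, 0, 43.0, 0 and 50.7 CPM and its 4 stems 0, and it was called higher (adjusted p = 0.049 by edgeR). The scions of 14 DAG held 0, 120, 61.8 and 0 CPM of Solyc01g102910.

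Solyc03g097870 had 41.8, 200, 15.8, 56.4 and 33.3 CPM in stems 1 to 5 and 5.90, 3.22, 1.77, 0 and 0 CPM in stocks 1 to 5. It fell by 5.00 ± 0.93 on the log2 scale (adjusted p = 0.022 by edgeR), with an adjusted p of 0.063, 0.055 and 0.056 without stocks 2, 4 and 5. At 7 DAG it was at 0 in all 3 stocks and at 9.73, 13.3, 22.4 and 6.91 CPM in the stems, and it was called lower there too (adjusted p = 0.018 by edgeR). At 21 DAG its stocks held 11.7 to 27.6 CPM and its stems 10.3 to 57.3 CPM, which overlapped, and its change was -0.85 ± 0.70 (adjusted p = 0.56). Solyc07g008240 had 64.5, 82.2, 43.8, 22.4 and 42.3 CPM in the stems and 6.97, 10.6, 9.58, 12.2 and 0 CPM in the stocks. It fell by 2.66 ± 0.57 (adjusted p = 0.034 by edgeR). In 8 of the 10 fits that left out 1 library, its adjusted p was between 0.050 and 0.080, above the threshold. It was lower in the stock at 21 DAG as well (-1.76 ± 0.52, adjusted p = 0.048 by edgeR), whereas at 7 DAG its change was 0.30 ± 0.54 (adjusted p = 0.84).

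Of the 34688 genes of the whole table, 30 were at 0 in all 5 stems and had at least 1 count in all 5 stocks. In the other direction, 3 genes were at 0 in all 5 stocks and counted in all 5 stems. Stems 4 and 5 listed 9.48% and 11.4% of genes with at least 10 counts in stems 1 to 3 at 0. No stock listed more than 3.01% in the like comparison. What these zeros add to the 30 was not tested. Of the 30, 11 had enough counts to be tested. These passed the filter through the stocks alone, so that all 11 were called higher follows from how they were chosen. The summed level of the 30 genes in a stock ran from 166 to 407 CPM (median 288). Over the stem floor of 3 counts, the median fold was 4.18, and 28 of the 30 had a stock mean above that floor. In the 4 scions of 14 DAG, 16 to 28 of these genes were counted. The 3 stocks of 7 DAG held 17 to 19 of them and the 4 stems of that day 2 to 13. The 5 stocks of 21 DAG held 13 to 22 and the 4 stems 6 to 14. Stocks and stems therefore did not overlap at 7 DAG and overlapped at 21 DAG, where the highest stem had 14 and the lowest stock 13. The number of genes counted depends on depth, which was not matched, and what depth adds was not tested. In summed CPM, which is scaled to the library total, the 7 DAG stocks held 112 to 304 and the stems 6.52 to 73.3. At 21 DAG the stocks held 179 to 315 CPM and the stems 25.5 to 432 CPM.

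**Figure D4:**
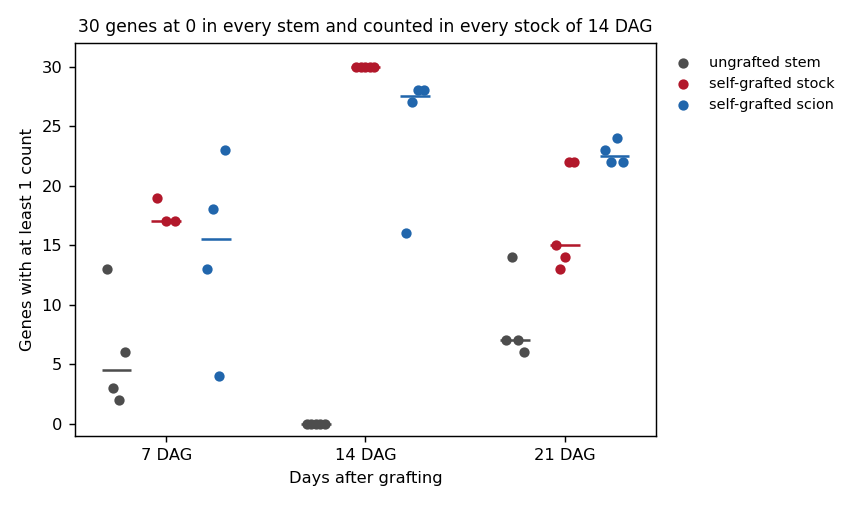
Number of the 30 genes that had at least 1 count in each library of ungrafted stem (grey), self-grafted stock (red) and self-grafted scion (blue) at 7, 14 and 21 DAG, with a bar at the group median. By their choice the genes are at 0 in the stems and at 30 in the stocks of 14 DAG. The stocks of 7 DAG hold 17 to 19 against 2 to 13 in the stems, with depth not matched between libraries.

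The same contrast at 7 and 21 DAG, from separate plants, shows how far the response of 14 DAG was shared over time. In a fit of 11944 genes over the 3 days, stocks had 205 genes higher and 16 lower than stems at 7 DAG (1.85% called), and 60 higher and 58 lower at 21 DAG (0.988% called). The contrast of 14 DAG gave 34 higher and 18 lower in this fit, fewer than with its 10 libraries alone. Of the 76 higher genes of 14 DAG, 69 were tested over time. At 7 DAG, 19 of the 69 were called higher as well (27.5%, and 9.27% of the 7 DAG calls), and at 21 DAG 11 (15.9%, and 18.3% of the 21 DAG calls). None was called higher on all 3 days, and 39 were called on 14 DAG alone. The 14 DAG calls came from its 10 libraries and those of the other days from the fit over 3 days. A gene called on 14 DAG alone can therefore have changed on another day too. The median log2 fold change of the 69 genes was 1.33 at 7 DAG and 0.87 at 21 DAG, beside 0.13 and -0.01 for all genes.

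The genes lower in the stock at 14 DAG were followed in the same way. Of the 27, 3 were called lower at 7 DAG (11.1%), 2 were called higher there, and 3 were called lower at 21 DAG (11.1%). A single gene was called lower on all 3 days. Their median log2 fold change was 0.22 at 7 DAG and -0.52 at 21 DAG. The stems and stocks of 7 DAG held a median of 60.1 and 62.4 CPM over the 27 genes. At 14 DAG the stems held 70.0 and the stocks 16.3 CPM, and at 21 DAG the stems held 31.0 and the stocks 17.2 CPM. These medians were lower in the stems at 21 DAG than at 14 DAG and lay close together in the stocks of both days. The genes were chosen as high in the stems of 14 DAG, which favours a lower stem level on another day. Stems of different days were not tested against each other.

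**Figure D5:**
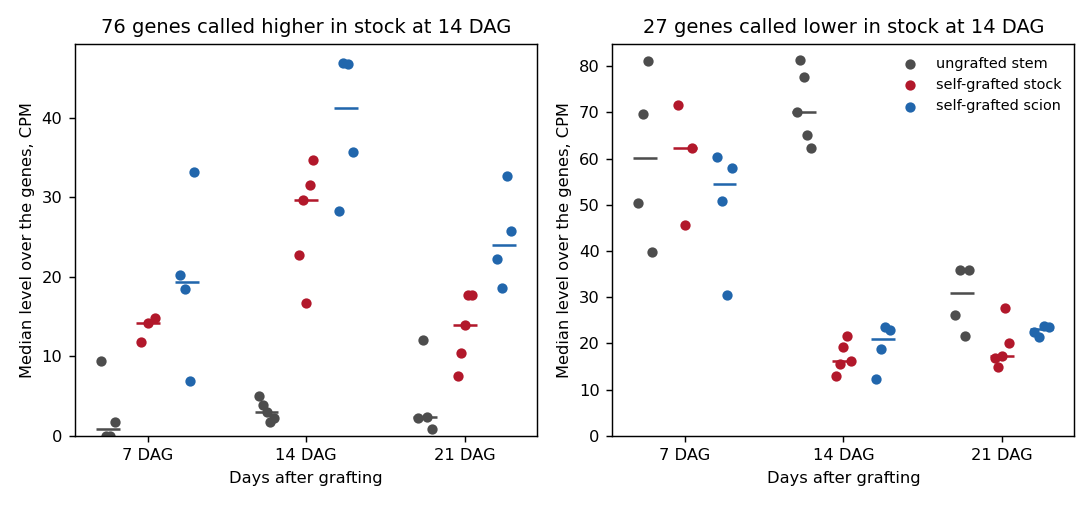
Median level in CPM over the 76 genes called higher (left) and the 27 called lower (right) in each library of ungrafted stem (grey), self-grafted stock (red) and self-grafted scion (blue) at 7, 14 and 21 DAG, with a bar at the group median. The genes were chosen on the stems and stocks of 14 DAG, and the stocks of 7 DAG lie above the stems for the higher genes but among them for the lower genes.

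The difference between days was tested directly. The change in the stock differed between 14 and 7 DAG in 82 genes (0.687% of those tested, adjusted p under 0.05 by edgeR) and between 14 and 21 DAG in 5 genes (0.0419%). Of the 27 lower genes, 7 differed from 7 DAG. All of these fell at 14 DAG and had a positive log2 fold change at 7 DAG (0.47 to 3.55). Of the 69 higher genes, 2 differed. Both rose at 14 DAG, with a log2 fold change of -0.49 and -0.27 at 7 DAG. The libraries of 14 DAG that chose these genes also enter this test. None of either set differed from 21 DAG. The count of 82 was 49 without stem 1, 50 without stem 3, and 39, 26 and 45 without stocks 2, 4 and 5. The count of 5 became 10 without stem 2, 2 without stem 3, 1 without stem 4, 13, 1, 9 and 3 without stocks 1, 2, 3 and 5, and 0 without stems 4 and 5.

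No gene was called between stock and scion of the self-grafts at 14 DAG. Of 12591 genes tested between 5 stocks and 4 scions, 0 were called (0%) by edgeR, with 835 at an unadjusted p under 0.05, the lowest adjusted p at 0.114, and a median standard error of 0.21 on the log2 scale. DESeq2's Wald test also called 0, with 49 genes at an adjusted p under 0.05 and changes below the fold threshold. Without stock 1, edgeR called 1 gene lower in the stock. Scions and stocks may be the 2 sides of the same grafts, and these tests took them as separate. With the replicate number as a block, edgeR also called 0. In the scions the 76 higher genes had a median level of 28.3 to 46.9 CPM and the 27 lower genes 12.3 to 23.5 CPM, beside 16.7 to 34.7 and 12.9 to 21.6 CPM in the stocks on the same scaling. The stems of 14 DAG held 1.68 to 5.06 CPM for the higher and 62.4 to 81.4 CPM for the lower genes. These stems and stocks chose the genes, so the values are a description with no test of scion against stem.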

How the data were processed

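QuantSeq FWD reads were trimmed by the authors with Trimmomatic, and their polyA tails were trimmed with Prinseq. The reads were aligned with STAR 2.7.10b to the ITAG4 models, and StringTie gave the counts. The deposited tomato table holds these raw counts for 34688 genes, not normalized. Whether counting used strand is not given in the sources used here. Libraries were grouped by their labels, and no tomato column was left unmapped.

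The main test was the quasi-likelihood test of edgeR 4.0.16 with TMM scaling (R 4.3.3), and DESeq2 1.42.0 was an alternative. Genes with under 10 counts on average, or 0 counts in 75% or more of the libraries fitted, were left out. Benjamini-Hochberg adjustment covered all genes tested. A standard error is the size of the log2 fold change divided by the root of F and is approximate. CPM are TMM-scaled. The 3 fits used the 10 libraries, the 26 stem and stock libraries of 3 days, and the 9 stock and scion libraries. The tests were tested on simulated data.

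Named genes are those the study's text gives by identifier, and up to 2 unnamed identifiers in each direction (called, groups not overlapping, at least 5 CPM in the higher group). The members and rules were chosen with earlier results of these data known. Planned lists by product name, marker sums and promoter motifs were not run, since no tomato annotation was used here. Pepper counts were not used. The alternatives were other scaling, tests, filters, thresholds, sets of groups, a replicate block and each library left out. Leaving out stems 4 and 5 together was chosen after seeing the data. No pair of libraries held identical values.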

Additional observations from a re-analysis of the deposited data

Results flagged for a closer look

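HSR4 in stock 1 was 71.3 CPM at 14 DAG, far from the other 4 stocks, whose values lay between 6.75 and 14.3 CPM. Solyc03g097870 in stem 2 was 199.9 CPM, far from the other 4 stems at 15.8 to 56.4 CPM. These were the 2 values that stood apart among 20 groups of 5 values examined. How many chance alone would give was not worked out.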

How the results depend on the processing

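The calls of stock against stem at 14 DAG held their numbers under DESeq2's size factors (76 higher, 27 lower), no filter (86, 24), edgeR's filterByExpr (78, 27) and the filter over all tomato libraries (86, 27). DESeq2's Wald test called 137 higher and 46 lower, among them all 103 genes. An unadjusted p gave 194 and 71, no fold change threshold 228 and 207, all groups of 14 DAG but the heterografted stock 177 and 40, and all 5 groups 165 and 39. With 1 library left out the range was 33 to 89 higher and 9 to 35 lower, and 32 of the 103 genes were called in all 10 such fits. Without stems 4 and 5 (chosen after seeing the data) 75 and 16 were called. With the replicate number as a block, 0 and 0 genes were called, with 1908 at an unadjusted p under 0.05 and a lowest adjusted p of 0.051, and all 103 genes kept their direction. Same-numbered stem and stock deviations correlated at -0.11 to 0.057, and 0 of the 5 stocks correlated best with its own number, so the numbers were not taken to pair stems with stocks. Same-numbered scions and stocks correlated at 0.24, 0.0093, 0.23 and 0.050 (replicates 1, 2, 3 and 5), not all above 0.1, and for replicates 1 and 3 the stock correlated best with its own number. For stock against scion, 0 genes were called under each alternative of scaling, test, filter and block, and 0 higher and 0 to 1 lower with 1 library left out. The difference from 7 DAG was 272 genes by DESeq2's Wald test, 33 with the replicate block and 26 to 92 with 1 library left out. The difference from 21 DAG was 16 genes by DESeq2's size factors, 237 by DESeq2's Wald test, 1 with no filter, 0 with the replicate block, 2 with a difference above 1.5, 0 without stems 4 and 5 and 1 to 13 with 1 library left out. The log2 fold change of HSR4, -0.20 with all libraries, turned to 0.38 without stem 3, 0.02 without stock 3 and 0.01 without stock 5, and ran from -1.37 to 0.38 with 1 library left out. The cause of these shifts was not tested. Depth limits genes under a mean of 10 counts.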

Other observations

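Called genes that sat beside each other in the table were counted, since neighbouring gene models can share reads. Of the 103 called genes, 16 had a tested neighbour on the same chromosome that was called in the same direction. Each gene of such a pair was counted. Of all genes tested, 0.848% were called. The number to be had by chance was not worked out, and whether reads were shared was not tested.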
